A study of Mus musculus with 2 samples.

Results

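Capillary endothelial nuclei of the mouse heart were described in 2 single-nucleus RNA sequencing libraries, 1 from control hearts and 1 from hearts of mice given a PD-1 inhibitor. The nuclei were chosen by measured values. A nucleus was a member if the UMIs of 7 capillary genes (Aplnr, Timp4, Tcf15, C1qtnf9, Dach1, Ccdc85a and Btnl9) summed to at least 2 and those of 4 endothelial genes (Flt1, Ptprb, Pecam1 and Cyyr1) summed to at least 2. The capillary sum also had to exceed the sums of the endocardial (Npr3, Nrg1, Plvap, Smoc1, Sall1), lymphatic (Mmrn1, Reln, Flt4), arterial (Sema3g, Gja5, Gja4) and fibroblast (Pdgfra, Col1a1, Col3a1, Dcn) genes. A UMI is a molecular barcode that marks 1 captured RNA molecule. The rule found 1087 members among 18066 nuclei with at most 20% mitochondrial UMIs, namely 669 of 10114 control and 418 of 7952 PD-1 inhibitor nuclei.

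The mice were male C57BL/6, and 8 weeks old when the experiment began. The treated group received an antibody against mouse PD-1 by intraperitoneal injection at 5 mg/kg on days 1 and 14 of a 28-day cycle, and the control group received PBS on the same days. Nuclei were isolated from cardiac tissue, so the counts describe RNA captured with nuclei, which included mitochondrially encoded RNA. Each condition has 1 library, and the number of hearts in a library is not given in the sources used here. Nuclei of 1 library are not replicates, so no p-value is given. The 95% intervals below cover counting error only, and a difference between the libraries cannot be told apart from a difference between the hearts or preparations behind them.

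Capillaries are the vessels in which blood and myocardium exchange oxygen, water and fuel. In the heart their endothelium takes up fatty acids from circulating lipoproteins, with lipoprotein lipase anchored at the luminal surface by GPIHBP1, transport by CD36 and FABP4, and transcription of these genes under the control of MEOX2 and TCF15. The endocardium, which lines the chambers, is also endothelial but expresses a different set of genes, and is used here as the comparison closest in kind.

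The members were shallow profiles. The control members held 774689 UMIs and the PD-1 inhibitor members 474698, with a median of 998 and 932 UMIs and of 666 and 618 genes per nucleus. Mitochondrial genes took 1.40% of the control and 2.09% of the PD-1 inhibitor members' UMIs, and ribosomal protein genes 0.532% and 0.826%. Scrublet called 31 control and 10 PD-1 inhibitor members doublets, and these were kept. The libraries share 48 barcodes, of which 5 belong to a member of either library and 0 to members of both.

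At the edge of the rule, 136 control and 85 PD-1 inhibitor members had a capillary sum of 2. Just outside it, 77 and 61 nuclei met every other condition with a sum of 1. Capillary markers that the rule did not use held 17173 and 22014 UMIs per 1000000 (CPM) in the members with a sum of 2, against 13767 and 19947 CPM in the nuclei with a sum of 1. The nuclei just outside thus carried somewhat less of the same markers. Another 104 control and 124 PD-1 inhibitor nuclei with a capillary sum of 2 or more were left out because another class's sum was as large or larger. A capillary sum that met the rule beside an endothelial sum of 1 kept out 74 and 59 nuclei.

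Most members qualified on a pair or trio of the 7 genes. A single gene was detected in 142 control (21.2%) and 73 PD-1 inhibitor members (17.5%), and 2 genes in 303 (45.3%) and 171 (40.9%). No member held all 7. The median capillary sum was 4 in both libraries, and the highest was 30 and 19.

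Each rule gene had its own reach. Dach1, a transcription factor gene, was detected in 69.7% of control and 56.2% of PD-1 inhibitor members, and Ccdc85a in 47.8% and 44.3%. Aplnr, the apelin receptor gene, was found in 24.2% and 35.6%, Tcf15 in 20.6% and 25.6%, and Timp4, an inhibitor of matrix metalloproteinases, in 12.9% and 23.7%. Detection of the last 3 was thus higher, and of Dach1 and Ccdc85a lower, in the PD-1 inhibitor members. In all other nuclei Aplnr was detected in 1.02% and 1.34%, and Timp4 in 0.65% and 1.15%. The median depth there was 1018 and 1077 UMIs, against 998 and 932 in members.

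The label was checked against genes that the rule did not use. Of 25 further capillary markers, 19 in the control and 20 in the PD-1 inhibitor members were detected in at least 5% of members at more than 2 times the level of the remaining nuclei. Their summed level was 18188 and 21201 CPM in members, against 4139 and 4403 CPM in all other nuclei and 4559 and 4822 CPM in the other endothelial nuclei. Of 30 pan-endothelial markers, 24 and 23 met the same criteria. None of the 15 endocardial markers outside the rule did so, nor did any of the fibroblast, pericyte, cardiomyocyte, macrophage or T cell markers. Of 14 arterial markers, 7 in control and 5 in PD-1 inhibitor members met them, as did 1 of 11 lymphatic and 1 of 11 venous markers in each library. Most further capillary markers thus met the criteria, and so did some arterial ones. These contrasts are a description because the members were chosen by expression.

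**Figure D1:**
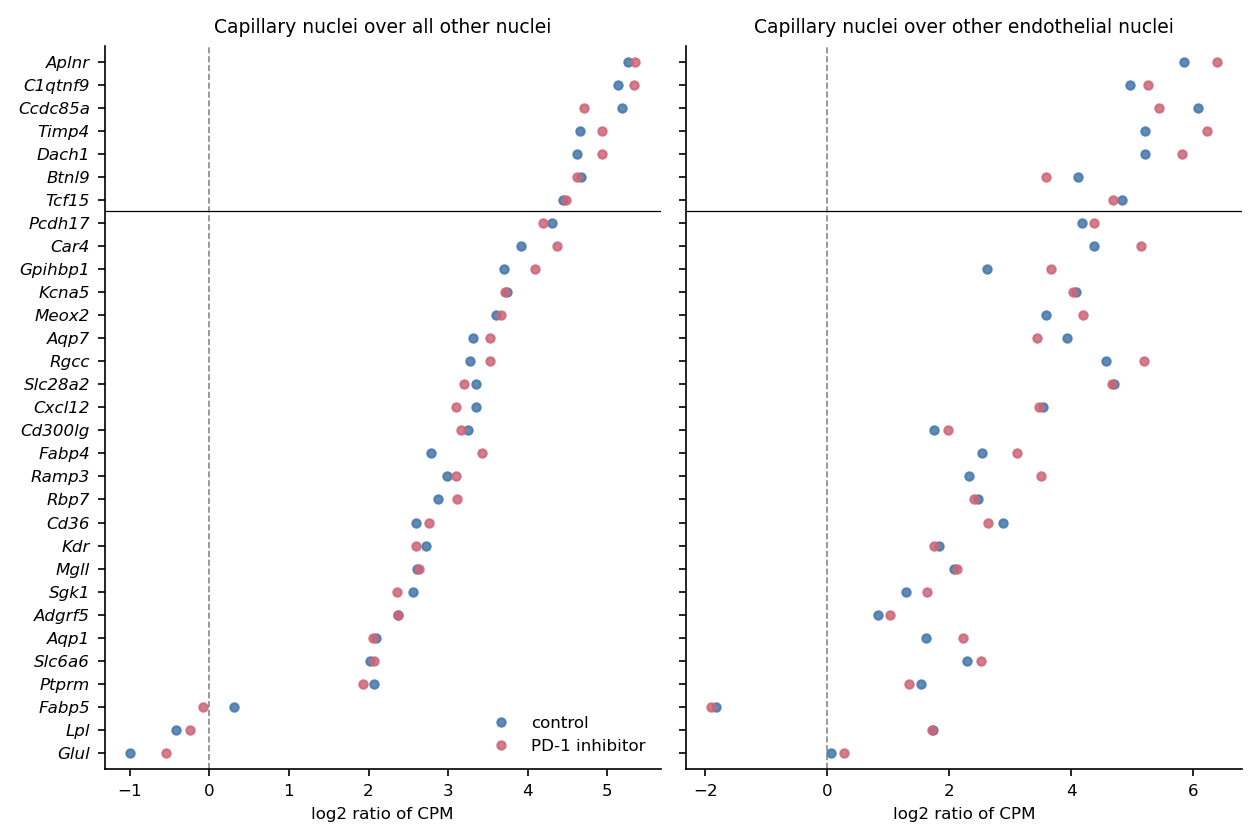
Log2 ratio of CPM in capillary nuclei over all other nuclei (left) and over endocardial, arterial and lymphatic nuclei (right), 1 point per gene and library, with the 7 genes of the rule above the line and the further capillary markers below it (Sh3rf2, with 7 and 1 UMIs, is not plotted). Most markers lie right of 0 on both sides, while Fabp5 lies at -1.82 and -1.90 against other endothelial nuclei and Lpl lies left of 0 against all other nuclei.

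Several fatty acid handling genes stood above the rest of the heart in members, while others did not. Gpihbp1 stood at 520 CPM in control and 876 CPM in PD-1 inhibitor members, against 40.0 and 51.4 CPM in all other nuclei. Cd36, the fatty acid translocase gene, stood at 3092 and 3602 CPM, against 511 and 531 CPM. Meox2 was 3.61 and 3.66 higher on the log2 scale than in all other nuclei. Lpl, the lipase that GPIHBP1 holds, is made mainly by cardiomyocytes. Its log2 ratio of members to all other nuclei was -0.42 and -0.24, but its ratio to other endothelial nuclei was 1.74 and 1.72. Fabp5, a second fatty acid binding protein gene, was at 0.31 and -0.08 against all other nuclei and at -1.82 and -1.90 against other endothelial nuclei.

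Among genes outside the rule with a UMI in at least 10% of members of each library, 327 of 1729 exceeded 2 times the level of the remaining nuclei in both libraries, and 212 exceeded 2 times that of other endothelial nuclei. The highest against all other nuclei was the predicted gene Gm12002, at 439 and 529 CPM in members and 20.2 and 19.8 CPM elsewhere. It was followed by Gm29007, Pcdh17 (a protocadherin), Efr3b, Dipk2b, Slc26a10 and Gpihbp1, with log2 ratios from 3.70 to 4.63. Nav3, Zfp366, Meox2, Pcdh12, Adgrl4, Sybu, Tmem88 and Mcf2l completed the 15 highest.

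Against other endothelial nuclei the order changed. Gm12002 again led, and next came Slc28a2, a nucleoside transporter gene, at 1013 and 750 CPM in members and 38.5 and 29.0 CPM in other endothelial nuclei. Rgcc, a cell cycle regulator gene, stood at 349 and 369 CPM against 14.2 and 9.67 CPM. Gm29007, Sybu, Pcdh17, Vwa3a, Nav3, Mmp15 and Tcim were the other 7 of the 10 highest. Transport and membrane genes therefore appear on this list beside the predicted genes. The lowest against other endothelial nuclei were Ahsg, Plagl1, H19, Comp and Chrm3, the last at 50.3 and 40.0 CPM in members and 986 and 792 CPM in other endothelial nuclei.

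Markers of arteries, outside the rule, were also detected in members. The 14 arterial markers outside the rule summed to 2808 (2691 to 2928) CPM in control and 2429 (2291 to 2573) CPM in PD-1 inhibitor members, against 7135 and 7321 CPM in arterial nuclei. The sum was 2440 and 2333 CPM in all other endothelial nuclei together and 1166 and 1228 CPM in all other nuclei. At least 1 of the 14 was detected in 80.7% of control and 77.3% of PD-1 inhibitor members. Several of these 14 genes, such as Cxcl12, are also capillary markers. The 11 venous markers summed to 1288 and 1458 CPM in members, and to 8452 and 10521 CPM in endocardial nuclei. Proliferation genes were rare, with 273 and 210 UMIs over 25 genes and 17 and 11 UMIs of Mki67. The 25 genes summed to 352 and 442 CPM in members and to 327 and 300 CPM in all other nuclei.

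RNA of cardiomyocytes was present in most members. The 12 cardiomyocyte markers summed to 10971 and 12619 CPM in members, to 18436 and 19337 CPM in all other nuclei and to 5407 and 5681 CPM in other endothelial nuclei. At least 2 of the 12 were detected in 82.2% of control and 88.5% of PD-1 inhibitor members. None of the 12 exceeded 2 times the level of all other nuclei in members, and none was at 0. Their part in the gene differences described further on was not tested. Values without the members richest in these markers are given for some genes.

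Capillary nuclei were a smaller part of the PD-1 inhibitor library than of the control. Members made up 6.61% (Clopper-Pearson, 6.14 to 7.12) of control and 5.26% (4.78 to 5.77) of PD-1 inhibitor nuclei, a ratio of 0.795 (0.702 to 0.899). Of nuclei with an endothelial sum of at least 2, they made up 22.7% and 17.1%, a ratio of 0.753 (0.665 to 0.852). Endocardial nuclei, chosen by the same kind of rule, were 748 and 790, a ratio of 1.34 (1.21 to 1.49). The capillary and endocardial ratios lie on opposite sides of 1, and shares of 1 whole cannot move independently.

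This lower share was not seen when the rule left out Dach1 and Ccdc85a. With both left out of the capillary sum, 313 control and 247 PD-1 inhibitor nuclei qualified, 3.09% and 3.11% of all, a ratio of 1.00 (0.846 to 1.19). Dach1 and Ccdc85a are the longest of the 7 capillary rule genes, spanning 383 and 199 kb. Every other setting of the rule that was tried gave a ratio to all kept nuclei between 0.795 and 0.817.

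**Figure D2:**
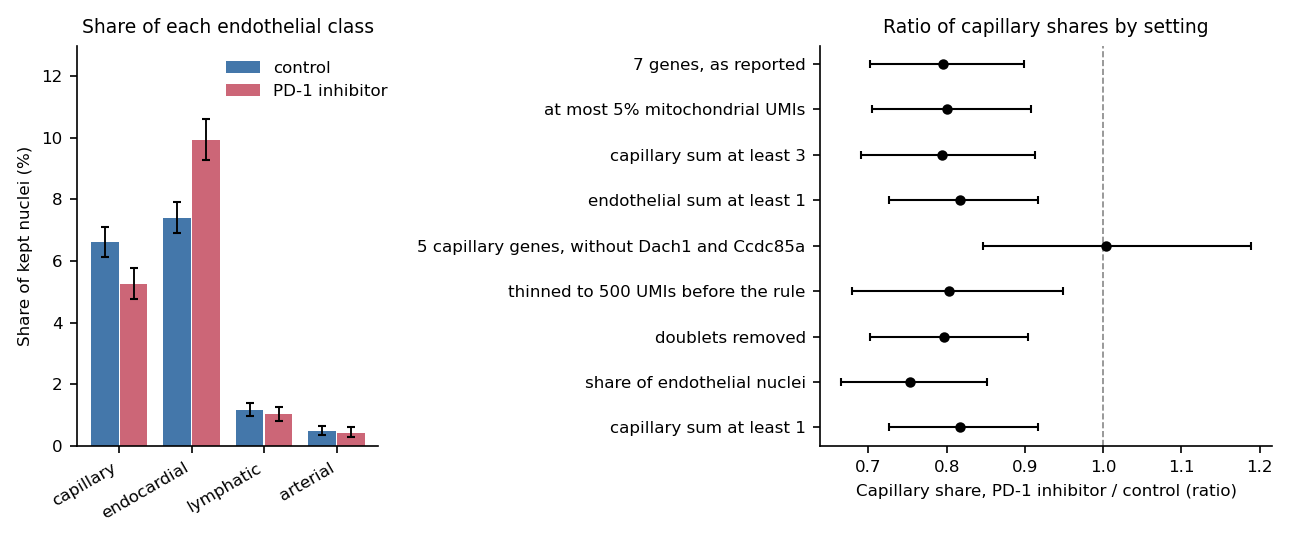
Left, share of kept nuclei (%) in each endothelial class for the control and PD-1 inhibitor libraries, with 95% Clopper-Pearson intervals as error bars. Right, ratio of the capillary shares under each setting with its 95% counting interval; the ratio is 1.00 when Dach1 and Ccdc85a are left out and between 0.753 and 0.817 otherwise.

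The 2 libraries were next compared gene by gene within members. UMIs were summed over the members of a library and expressed as CPM, and genes with at least 100 UMIs in both together were compared as the log2 ratio of PD-1 inhibitor to control. Of 3134 such genes, 171 (5.46%) were at least 1.5-fold higher and 211 (6.73%) at least 1.5-fold lower, with a median log2 ratio of -0.04. The counting interval excluded 0 for 171 of the higher and 205 of the lower genes. These counts largely follow from the minimum of 100 UMIs and the 1.5-fold limit, so they add no support for the calls. Higher genes were thus 44.8% of the calls. Centred on that median, 220 were higher and 175 lower, 55.7% of the calls, so which direction has more genes depends on the scaling.

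The ratios followed gene span. With the genes ranked by span and cut into 5 equal groups, from the shortest to the longest, the median log2 ratio in members was 0.26, 0.06, -0.06, -0.12 and -0.26. The genes called higher had a median span of 8.37 kb, those called lower 102 kb, and all compared genes 51.5 kb. The same 5 groups gave 0.20 to -0.18 in endocardial nuclei and 0.24 to -0.22 in all other nuclei, so the gradient was present outside the capillaries in the same 2 libraries. Its part in each gene's difference was not tested gene by gene, and values centred on genes of similar span stand beside many of the genes and lists below. Centred in this way on the same span decile, 96 genes were higher and 158 lower.

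**Figure D3:**
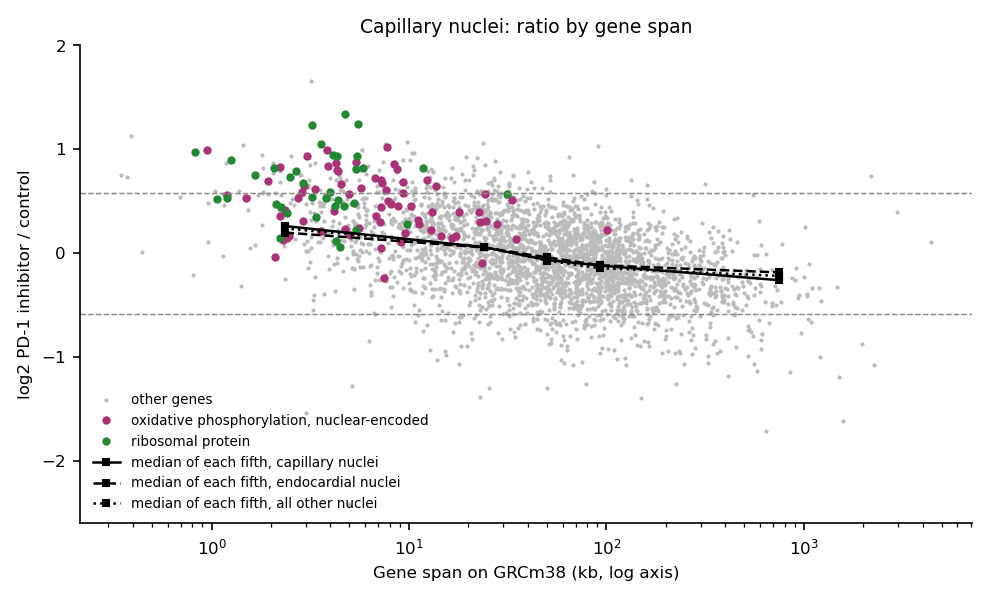
Log2 ratio of PD-1 inhibitor to control in capillary nuclei (vertical axis) against gene span in kb (horizontal, log axis) for 3134 genes, with dashed lines at 1.5-fold and black lines joining the medians of 5 span groups in 3 classes of nuclei. Ribosomal protein and oxidative phosphorylation genes gather at short spans above 0, the medians go from 0.26 to -0.26 in capillary nuclei, and Wfdc17, at -5.73, lies below the axis.

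The 7 rule genes, which chose the members, are given as a description. Timp4 stood at 170 (143 to 202) CPM in control and 333 (283 to 389) CPM in PD-1 inhibitor members, a log2 ratio of 0.97 (0.62 to 1.31). C1qtnf9, which encodes a secreted adiponectin paralog, stood at 249 and 388 CPM, a log2 ratio of 0.64 (0.34 to 0.94). Aplnr (0.48, 0.22 to 0.73), Tcf15 (0.45, 0.14 to 0.76) and Btnl9 (0.23, 0.03 to 0.44) had smaller ratios above 0. Ccdc85a was at -0.12 (-0.30 to 0.06) and Dach1 at -0.37 (-0.50 to -0.23). The 5 shorter genes of the rule thus lay above 0 and the 2 longest below it. The ligands of the apelin receptor were scarce, with 11 and 19 UMIs of Apln and none of Apela.

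The endothelial genes of the rule differed less. Flt1 and Ptprb had log2 ratios of 0.01 and 0.02, Pecam1 -0.05 and Cyyr1 -0.12, each with an interval that includes 0. Kdr, the main VEGF receptor gene, was at 1008 and 1020 CPM, and its log2 ratio was 0.02 (-0.15 to 0.18). Cdh5, which encodes VE-cadherin, was at 786 and 895 CPM, a log2 ratio of 0.19 (0.01 to 0.37).

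Of all compared genes, 5.46% were called higher and 6.73% lower. Of the 25 capillary markers outside the rule, 21 had at least 100 UMIs, and 3 were called higher and 0 lower, with a median log2 ratio of 0.14. The 3 were Gpihbp1 (0.75, 0.55 to 0.95), Fabp4 (0.72, 0.64 to 0.81) and Car4 (0.71, 0.22 to 1.19), the gene of a membrane-bound carbonic anhydrase. The lowest were Pcdh17 (-0.56) and Ptprm (-0.51), a long receptor phosphatase gene. After span centring Gpihbp1, Fabp4 and Car4 were at 0.36, 0.34 and 0.54, and the list had no call left. Car4 was at 0.51 without members holding over 10 UMIs of cardiomyocyte markers. Aqp1, the water channel gene, was at 1251 and 1590 CPM, a log2 ratio of 0.35 (0.21 to 0.49).

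Fatty acid genes were mostly on the higher side. Of the 30 in the list, 15 had enough UMIs, 4 of which were called higher and 0 lower, beside the 5.46% and 6.73% of all compared genes. The list's median log2 ratio was 0.24. The 15 include Tcf15, which the rule used. Fabp4 stood at 3080 CPM in control and 5085 CPM in PD-1 inhibitor members, with a UMI in 81.3% and 91.9% of them. Its log2 ratio was 0.19 (0.02 to 0.36) in endocardial and 0.09 in all other nuclei. Gpihbp1 was detected in 34.4% and 48.8% of members, and its log2 ratio was 0.36 in all other nuclei. The other 2 called genes were Acsl1 (0.92, 0.35 to 1.51), which encodes a fatty acyl-CoA synthetase, and Fabp3 (0.59, 0.39 to 0.79), the heart-type binding protein gene, abundant in cardiomyocytes.

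Of the regulators of fatty acid uptake, Pparg and Meox2 did not share this direction, while Tcf15, a rule gene, was at 0.45. Pparg, the gene of a lipid-sensing nuclear receptor, had a log2 ratio of -0.49 (-0.81 to -0.19), and Meox2 -0.27 (-0.62 to 0.07). Cd36 and Lpl lay at 0.22 (0.13 to 0.31) and 0.24 (0.07 to 0.41). Centred on genes of the same span decile, Fabp4, Gpihbp1 and Fabp3 fell below 1.5-fold, the last at 0.20, and the list kept 1 call. With members chosen by the 5-gene sum Fabp4 and Gpihbp1 were at 0.80 and 0.85.

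Genes of the respiratory chain and the ribosome were the largest group above 0. Of 70 nuclear-encoded oxidative phosphorylation genes, 25 were called higher and 0 lower, with a median log2 ratio of 0.45 and 67 of the 70 above 0. Of 36 ribosomal protein genes, 18 were called higher and 0 lower, with a median of 0.58. Of 7 mitochondrially encoded genes, 4 were called higher, with a median of 0.60. Together the ribosomal and nuclear-encoded respiratory genes were 43 of the 171 genes called higher and 0 of the 211 called lower. They made up 106 of the 3134 compared genes. The share called higher over all compared genes was 5.46%.

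The single members named here lie toward the top of their lists, whose medians are given above. Rpl32, of the large ribosomal subunit, was at 112 and 265 CPM, a log2 ratio of 1.24 (0.84 to 1.65), and Rpl34 and Rpl36 were at 1.05 and 0.98. Atp5j and Atp5e, of the ATP synthase, were at 1.02 and 0.94, and Uqcr11, of complex III, at 1.00. Cox6a2, a muscle isoform of a cytochrome c oxidase subunit, was at 0.99 (0.74 to 1.24). Without members holding over 10 UMIs of cardiomyocyte markers, Cox6a2 was at 1.43. The nuclear-encoded respiratory list then had a median of 0.55, with 18 of 38 genes called higher, from fewer genes than among all members. The 12 cardiomyocyte markers had a median of 0.31 among all members, with 10 above 0, 1 called higher and 1 lower. In the reduced set Mb, Tnni3, Myl3 and Ckm were still at 0.72, 0.67, 0.66 and 0.57. Ryr2 and Ttn were at -0.06 and -0.20 there. The setting thus left a difference in cardiomyocyte RNA, whose part in the respiratory ratios was not tested.

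The mitochondrial share and gene span were set beside these groups. The mitochondrial share of the members' UMIs was 1.40% in control and 2.09% in PD-1 inhibitor members. With members of at most 5% mitochondrial UMIs the medians were 0.49 for nuclear-encoded respiratory genes and 0.63 for ribosomal protein genes, no smaller than among all members. Centred on the span decile, the medians were 0.23 and 0.25, and 5 of 70 and 6 of 36 genes were called higher. The mitochondrially encoded genes had a median of 0.21 after this centring and 0 of 7 were called. Atp5e was at 0.55. In endocardial nuclei the log2 ratios of Rpl32, Atp5j and Cox6a2 were 0.54, 0.67 and 0.83.

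**Figure D4:**
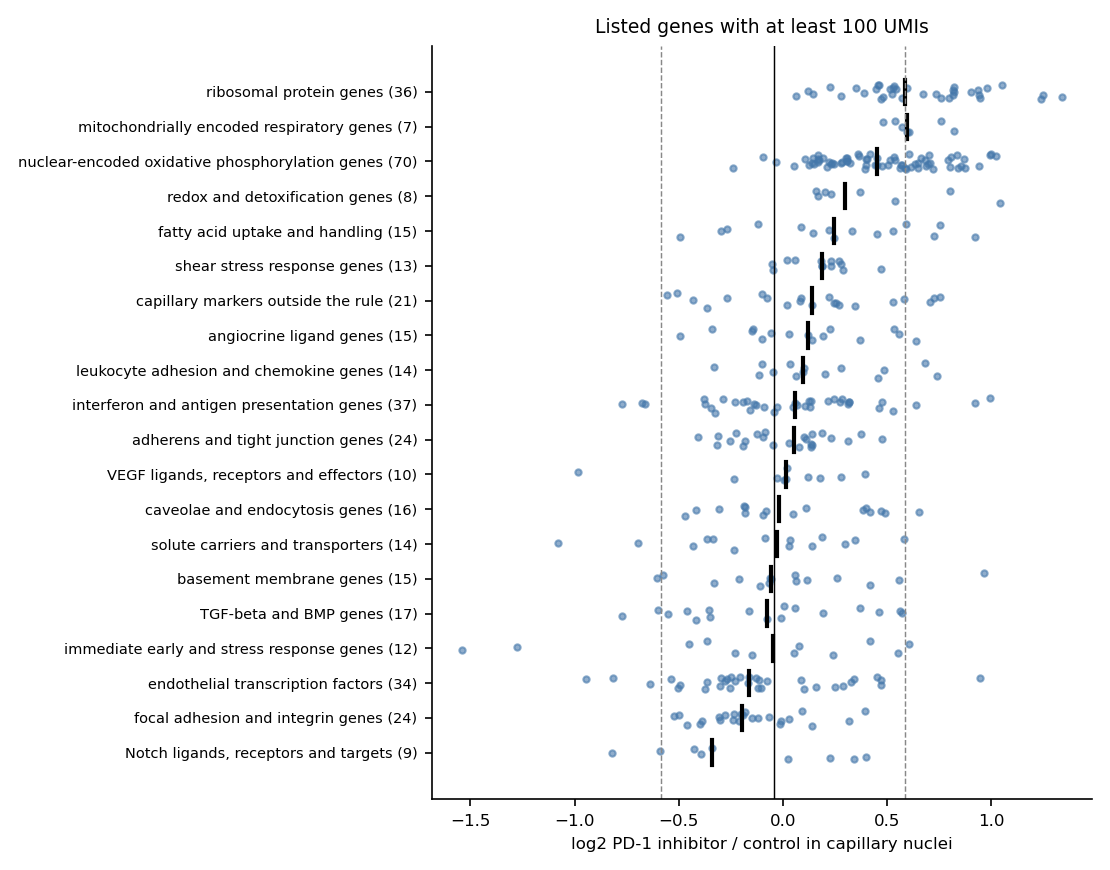
Log2 ratio of PD-1 inhibitor to control in capillary nuclei for the genes of 20 lists, 1 point per gene with at least 100 UMIs (the number in brackets counts them), with thick bars at list medians, dashed lines at 1.5-fold and a thin line at the median of all genes (-0.04). Most ribosomal and respiratory genes lie right of 0, with list medians from 0.45 to 0.60, while the focal adhesion and Notch lists have medians of -0.20 and -0.34.

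Other higher genes came from several lists. Crip1, which encodes a small LIM protein, was at 434 and 897 CPM, a log2 ratio of 1.05 (0.84 to 1.26), and at 0.17 in endocardial nuclei. Sox18, a transcription factor gene of endothelial development, was at 249 and 480 CPM, a log2 ratio of 0.95 (0.66 to 1.23). It was also 0.82 in endocardial nuclei, and 0.56 after span centring, just below 1.5-fold. Of 8 redox genes compared, 2 were called higher and 0 lower, namely Gpx1 (1.04, 0.57 to 1.52), a glutathione peroxidase gene, and Gstm1 (0.80, 0.32 to 1.29). The shares over all compared genes were 5.46% higher and 6.73% lower. After span centring Gstm1 was at 0.42, and 1 redox gene kept its call.

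Immediate early genes, which cells switch on within minutes of a stimulus, were split. Of 12 compared, 2 were called lower and 1 higher, beside 6.73% and 5.46% of all compared genes, and the list's median was -0.05. Egr1 had 112 UMIs in control and 28 in PD-1 inhibitor members, of which 9 lay in 1 nucleus. Its log2 ratio was -1.27 (-1.95 to -0.69). Ccn1, a matricellular gene, had 111 and 23 UMIs, and its log2 ratio was -1.54 (-2.28 to -0.91). Both were lower still in endocardial nuclei, at -4.54 (-5.52 to -3.79) and -3.35 (-3.71 to -3.02), intervals that do not overlap those of the capillary nuclei. In all other nuclei together Egr1 and Ccn1 were also lower, at -2.22 (-2.38 to -2.06) and -1.89 (-2.00 to -1.77). The difference between the classes was not tested. Klf6 went the other way, at 0.60 (0.31 to 0.90) in members and -0.03 in endocardial nuclei. Its call ended after span centring, at 0.44, and the list then had 4 lower and 0 higher calls, with a median of -0.32.

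The flow-responsive factors Klf2 and Klf4, picked after their values were seen, had uncentred ratios on opposite sides of 0 in the 2 endothelial classes. The difference between the classes was not tested. Klf2 was at 626 and 866 CPM in members, a log2 ratio of 0.47 (0.27 to 0.66), and at -0.46 (-0.60 to -0.32) in endocardial nuclei. Klf4 was at 0.29 (0.03 to 0.54) in members and -0.53 (-0.77 to -0.30) in endocardial nuclei. Neither passed 1.5-fold. Of 13 shear stress genes compared, 0 were called in either direction, 11 lay above 0, and the median was 0.19. Of all compared genes, 5.46% were called higher and 6.73% lower.

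**Figure D5:**
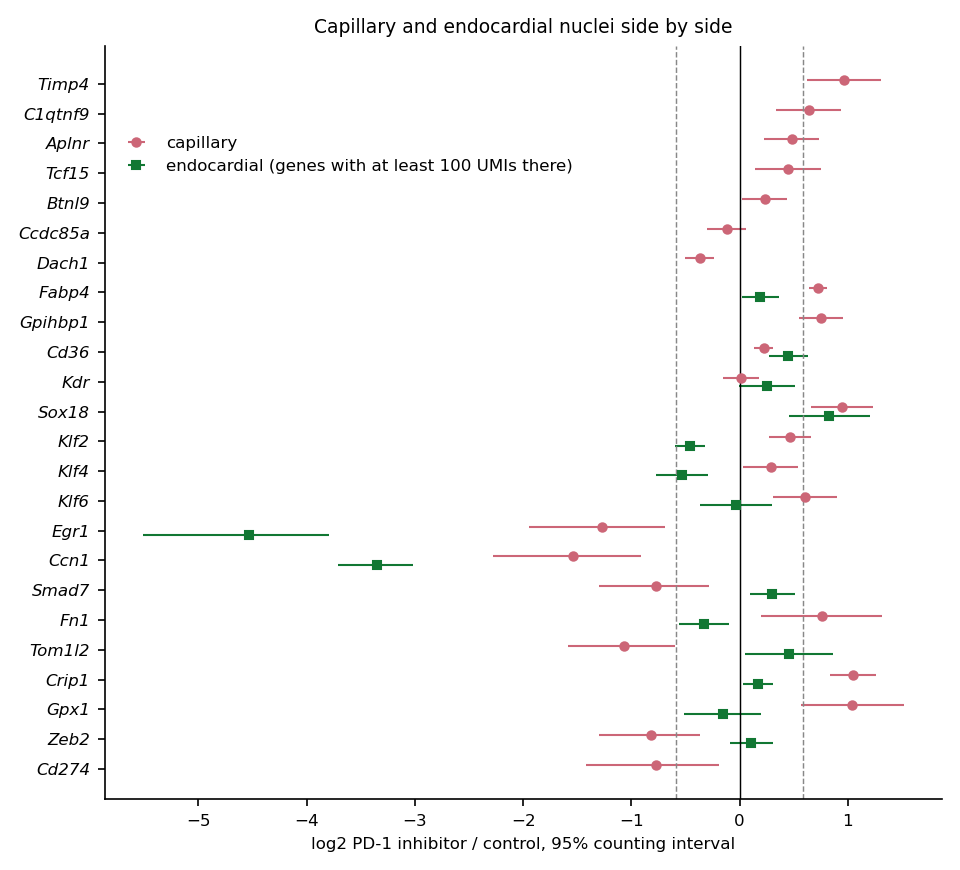
Log2 ratio of PD-1 inhibitor to control with 95% counting intervals (horizontal axis) for genes named in the text, in capillary nuclei (circles) and in endocardial nuclei (squares, where a gene has at least 100 UMIs there); dashed lines mark 1.5-fold. Egr1 and Ccn1 lie left of 0 in both classes and farther left in endocardial nuclei, whereas Klf2, Klf4 and Fn1 lie right of 0 in capillary and left of 0 in endocardial nuclei. The values are not span centred.

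Of the 10 lowest genes among those with at least 200 UMIs, 8 had spans above the median of all compared genes. Pde4d, a phosphodiesterase gene spanning 1504 kb, was at 315 and 137 CPM, a log2 ratio of -1.19 (-1.62 to -0.80). Trpm3, a cation channel gene, was at 457 and 206 CPM, a log2 ratio of -1.14 (-1.48 to -0.82). Dmd, the dystrophin gene, Tom1l2, Cntln, Nbea, Mbtd1 and Gm4070 lay between -1.03 and -1.07. After span centring Pde4d, Trpm3, Dmd, Tom1l2, Cntln, Nbea, Mbtd1 and Gm4070 were all still at -0.75 or lower. Dmd was at -0.42 without members holding over 10 UMIs of cardiomyocyte markers, and Mbtd1 at -0.37 after members were thinned to 500 UMIs, neither past 1.5-fold.

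Wfdc17 and Lyz2 were the 2 lowest of all but rest on 1 nucleus. Wfdc17 had 216 UMIs in control and 2 in PD-1 inhibitor members, and Lyz2, the lysozyme gene of macrophages, 282 and 32. A single control nucleus of 3760 UMIs held 206 and 172 of these UMIs, and Scrublet had not called it a doublet. Without it Wfdc17 fell below 100 UMIs, and the log2 ratio of Lyz2 was -1.07. The 12 macrophage markers, of which Lyz2 is one, summed to 1246 and 712 CPM in members and to 2381 and 2571 CPM in all other nuclei. In control members 1 nucleus held 244 of the 965 UMIs of these markers.

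Of 34 endothelial transcription factor genes compared, 1 was called higher (Sox18) and 3 lower, and the median was -0.17. The 34 include Tcf15 and Dach1, which the rule used. Among all compared genes 5.46% were higher and 6.73% lower. The 3 were Etv6 (-0.95, -1.34 to -0.58), Zeb2 (-0.82, -1.30 to -0.37) and Mecom (-0.64, -0.86 to -0.43). After span centring the median was -0.06 and 2 stayed lower, with Mecom at -0.33. Tcf12, which belongs to the study's question, was at 723 and 588 CPM, a log2 ratio of -0.30 (-0.51 to -0.09), with values of -0.28 in endocardial and -0.30 in all other nuclei. Its span is 269 kb, and after span centring it was at 0.01.

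The calls among genes of the TGF-beta, Notch and VEGF pathways were in the lower direction, where 6.73% of all compared genes were called. Tgfb1 had 86 and 68 UMIs, and its log2 ratio was 0.37 (-0.11 to 0.84) with an interval that includes 0. Of 17 TGF-beta and BMP genes, 2 were called lower, namely Smad7 (-0.77, -1.30 to -0.29), an inhibitory SMAD, and the receptor gene Acvr2a (-0.60, -1.06 to -0.16). Acvr2a was at -0.50 after span centring, and Smad7 at -0.46 with members chosen by the 5-gene sum. Of 9 Notch genes, the coactivator Maml2 (-0.82, -1.08 to -0.57) and the ligand gene Jag2 (-0.59, -1.10 to -0.12) were called lower. Maml2 was at -0.51 after span centring, and Jag2 at -0.37 as a mean over nuclei, both short of 1.5-fold. In the VEGF list Vegfa was called lower, at -0.98 (-1.63 to -0.40) on 101 and 31 UMIs. It was at -0.57 without the doublets Scrublet called, just short of 1.5-fold.

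Genes of endothelial-to-mesenchymal transition were sparse. Of 22 in the list, 5 had enough UMIs, with 1 called higher and 1 lower, beside 5.46% and 6.73% of all compared genes. Fn1, the fibronectin gene, had 55 and 57 UMIs, its log2 ratio was 0.76 (0.20 to 1.32), and 17 of its 57 PD-1 inhibitor UMIs came from 1 nucleus. Zeb2 was the gene called lower. Vim, which endothelial cells also express, was at 568 and 689 CPM, a log2 ratio of 0.28 (0.07 to 0.49). Acta2, the smooth muscle actin gene, had 16 and 11 UMIs, too few for a comparison, and was detected in 1.35% and 2.15% of members.

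Junction and adhesion genes gave no calls, while 5.46% of all compared genes were higher and 6.73% lower. All 24 compared junction genes lay within 1.5-fold, with a median log2 ratio of 0.05, and after span centring 1 was past it in each direction. All 24 focal adhesion and integrin genes also did, with a median of -0.20 that became -0.03 after span centring. Of 15 basement membrane genes, Timp4, which the rule used and which is given as a description, was past 1.5-fold higher and Agrn lower (-0.60, -1.20 to -0.06), and the median was -0.06. Agrn was at -0.49 without the doublets Scrublet called.

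Immune-related genes were mixed. Of 37 interferon and antigen presentation genes, 3 were called higher and 3 lower, beside 5.46% and 6.73% of all compared genes. Psmb9, an immunoproteasome subunit gene, was at 0.99 (0.46 to 1.54), Ifnar1, a type I interferon receptor gene, at 0.92 (0.35 to 1.5), and the MHC class I gene H2-T23 at 0.64 (0.32 to 0.95). Cd274, which encodes PD-L1, the ligand of PD-1, had 90 and 32 UMIs, its log2 ratio was -0.77 (-1.42 to -0.19), and it was detected in 8.67% and 6.22% of members. The ratio of Cd274 was also below 0 outside the members, at -0.59 (-0.81 to -0.38) in all other nuclei. In endocardial nuclei it was -1.03 (-1.96 to -0.19) on 34 and 18 UMIs. Parp14 was at -0.68 and Ifit2 at -0.66. The median of the list was 0.06. After span centring H2-T23 was at 0.25, and the list had 2 higher and 4 lower calls. With members chosen by the 5-gene sum H2-T23 was also at 0.25, and without members holding over 10 UMIs of cardiomyocyte markers Parp14 was at -0.53. Pdcd1, the gene of PD-1 itself, had 1 UMI in each library's members.

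Adhesion, transport and caveolar genes added single calls, beside the 5.46% higher and 6.73% lower of all compared genes. Icam2 (0.68, 0.38 to 0.98), an adhesion molecule gene, and Ackr3 (0.74, 0.31 to 1.16), a chemokine scavenging receptor gene, were the 2 called of 14 leukocyte adhesion genes. Cavin1, a coat protein gene of caveolae, was at 0.65 (0.38 to 0.92), the only call among 16 caveolar and endocytic genes. After span centring Icam2, Ackr3 and Cavin1 were at 0.51, 0.57 and 0.48, and neither list kept a call. Cavin1 was also at 0.41 after members were thinned to 500 UMIs. Of 14 transporters, Slc12a2 (-1.08, -1.62 to -0.59), a sodium, potassium and chloride cotransporter gene, and Slc38a2 (-0.69, -1.06 to -0.35), an amino acid carrier gene, were called lower. Slc38a2 was at -0.54 without members holding over 10 UMIs of cardiomyocyte markers. Ramp2 (0.61, 0.29 to 0.93), which encodes the adrenomedullin coreceptor, was called higher among the pan-endothelial markers. Span centring ended that call, at 0.44, and left 0 higher calls in the pan-endothelial list.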

How the data were processed

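The authors deposited, per library, a matrix of raw UMI counts per gene and nucleus, made with the GEXSCOPE single nucleus kit. Per the labels, the processing notes name GRCm38 (mm10), and the aligner is not given in the sources used here. No barcode holds under 500 UMIs, and the 83 control and 15 PD-1 inhibitor nuclei over 20% mitochondrial UMIs were left out. Groups came from the treatment label. The deposited libraries hold 13177525 and 10875248 UMIs. UMIs of members were summed per library and divided by the total over all genes (CPM). Log2 ratios had 0.5 UMI added to each sum and an exact binomial interval conditional on both counts, at 95%. A call means 1.5-fold among genes with at least 100 UMIs and is no test. Other endothelial nuclei are endocardial, lymphatic and arterial nuclei chosen by the same kind of rule. Spans come from GENCODE vM21, which held 32522 of 32589 gene identifiers. Whether counting used strand is not stated, so overlapping genes may share UMIs. Doublets were called with Scrublet in scanpy 1.11.5, and Python 3.11.15, numpy 2.4.6, scipy 1.17.1, pandas 2.3.3 and matplotlib 3.10.9 were used. The ratio and its interval were tested on simulated data. Named genes were the rule genes, the capillary markers, the 15 and 10 highest against other nuclei, the 10 highest and lowest ratios with at least 200 UMIs, up to 3 calls per list and direction, and genes of the study's question. The 5 lowest against other endothelial nuclei, Klf2, Klf4, Apln, Apela and uncalled list members were named after their values were seen. Lists that hold a rule gene kept it in their counts and medians, such as Pecam1 among junction, shear stress and leukocyte adhesion genes. The members and lists were chosen with earlier results of these data known.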

Additional observations from a re-analysis of the deposited data

Results flagged for a closer look

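In 3 genes named by the rule the ratio of PD-1 inhibitor to control lay on opposite sides of 0 in capillary and endocardial nuclei, each with a counting interval that excludes 0. Whatever the interval, opposite sides were common among the called genes. Of the 171 called higher in capillary nuclei, 29 lay below 0 in endocardial nuclei, and of the 211 called lower, 57 lay above 0. Fn1, of whose capillary UMIs a part came from 1 nucleus as given above, was at 0.76 in capillary and -0.33 (-0.56 to -0.10) in endocardial nuclei. Tom1l2 was at -1.07 in capillary and 0.45 (0.05 to 0.86) in endocardial nuclei. Smad7 was at -0.77 in capillary and 0.30 (0.09 to 0.51) in endocardial nuclei. The difference between the classes was not tested, since each condition has 1 library.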

How the results depend on the processing

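No paired analysis was possible because each condition has 1 library, and for the same reason no replicate could be left out. Of the settings tried for the capillary share, 1 moved the ratio outside its counting interval, the 5-gene sum at 1.00. The counts of genes at least 1.5-fold higher and lower, 171 and 211 as reported, were 486 and 535 with a minimum of 50 UMIs, 73 and 76 with 200 and 4116 and 4503 with 1. They were 54 and 85 after thinning members to 500 UMIs, where 1148 genes passed the minimum. Span centring left 96 higher, and median centring gave 220 and 175. Without members holding 2 markers of another cell type, 72 control and 34 PD-1 inhibitor nuclei and 40 genes remained, with 2 higher and 3 lower. The other 36 values of the shares and counts stayed within their counting interval or 1.5 times. The genes over 2 times all other nuclei numbered 336 without doublets and 321 thinned, and those over 2 times other endothelial nuclei 220 and 216. Of 1511 values for named genes, 74 left the counting interval and 0 turned a called direction, while a gene under 100 UMIs in a setting gave no value there. The 2 settings that leave out the Lyz2-rich nucleus or the members with over 10 UMIs of cardiomyocyte markers, and a capillary sum of 1, were chosen after seeing the data.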
